A study of Cricetiscus sungorus with 216 samples.

Results

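The pituitary glands of male Djungarian hamsters (Phodopus sungorus, also called Siberian hamsters) late in a long stay under short photoperiod (SP, SD in the labels) were compared with those of hamsters in the middle of it. The late group held the 18 libraries made after 24, 28 and 32 weeks of SP, when the winter phenotype is given up although the days stay short. The mid group held the 18 libraries made after 8, 12 and 16 weeks of SP. These 36 libraries, chosen by the tissue and week in their labels, are among the 54 pituitary libraries of the series, which sampled 4 tissues of the same 54 hamsters. Each week had 6 hamsters, and each hamster gave 1 pituitary library, so weeks were compared between animals. All were adult males, and the labels name no drug or genetic change in either group, so the groups differ in the labels by the weeks spent in SP. The remaining pituitary groups, LP (long photoperiod, LD in the labels) and 4 and 20 weeks of SP, were used where named.

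The pituitary gland is a mix of endocrine cells that each make mainly 1 kind of hormone. Lactotrophs make prolactin (Prl), somatotrophs growth hormone (Gh), thyrotrophs and gonadotrophs the beta subunits Tshb, Lhb and Fshb that pair with the shared alpha subunit Cga, and corticotrophs and melanotrophs make the precursor Pomc. In seasonal mammals prolactin secretion follows photoperiod through melatonin acting on the pars tuberalis of the gland, is low in short days, and is tied to the growth of the winter and summer coats. After many weeks of short days hamsters become refractory to them and return to the summer state, which is the interval that the late and mid groups span. The tissue was a whole gland, so fewer cells of a type and less RNA per cell cannot be told apart in these values.

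The libraries were shallow and alike between the groups. They were nanopore cDNA libraries whose reads the authors aligned to the mouse genome, and the deposited isoform counts were summed per gene symbol. Total counts ranged from 29219 to 335144 in the mid libraries (median 87509) and from 35743 to 523544 in the late libraries (median 96126). Between 2554 and 11622 genes were read per library, and the 10 most counted genes took 37.3% to 75.9% of the counts. Levels are given as normalised CPM (counts scaled to a common library size), on a scale where 1 count is worth 12.2 CPM in the median library. Of 22482 gene symbols in the pituitary table, 4643 were read in at least 18 of the 36 libraries and were tested.

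Between the mid and the late weeks Prl, the prolactin transcript, was the 1 gene whose level in every late library lay above that in every mid library. It passed the test under all 65 processing alternatives tried. The 42 that left out a single library or replicate number add little, since the groups did not overlap to begin with. The Prl level went from 632 ± 332.7 CPM (mean ± SD, n = 18) in the mid group to 9470 ± 3618 CPM (n = 18) in the late group. The other gene past the threshold, Aak1, was read in 7 of 18 mid and 14 of 18 late libraries and is described further on. With edgeR's quasi-likelihood test and an FDR (Benjamini-Hochberg) under 0.1, 2 genes were higher in late SP (0.0431% of those tested) and 0 were lower (0.00%). An unadjusted p below 0.05 was reached by 74 genes higher (1.59%) and 89 lower (1.92%) in late SP, together 3.51% of those tested. The median log2 difference over all tested genes was -0.01.

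Prolactin counts separated the groups completely. In the mid libraries Prl had between 16 and 346 counts, and its level had a lowest value of 234 CPM, a median of 503 CPM and a highest value of 1425 CPM. In the late libraries it had between 218 and 5543 counts, with a lowest value of 4366 CPM, a median of 9130 CPM and a highest value of 15556 CPM. The lowest late library lay above the highest mid library, and Prl was the 1 gene of those tested for which this was so (0.0215%). As a share of all counts of a library, Prl took 0.0224% to 0.118% in the mid group and 0.379% to 1.43% in the late group. The fitted difference, late minus mid, was 3.85 on the log2 scale (SE 0.21, edgeR FDR = 8.98e-16), a 14.4-fold higher level in late SP with a 95% interval from 10.7-fold to 19.3-fold. A permutation test of the 36 libraries on mean log2 CPM (2-sided, 100000 resamples, 18 against 18) gave a difference of 3.91 and p = 1e-05, the smallest p it can give.

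**Figure D1:**
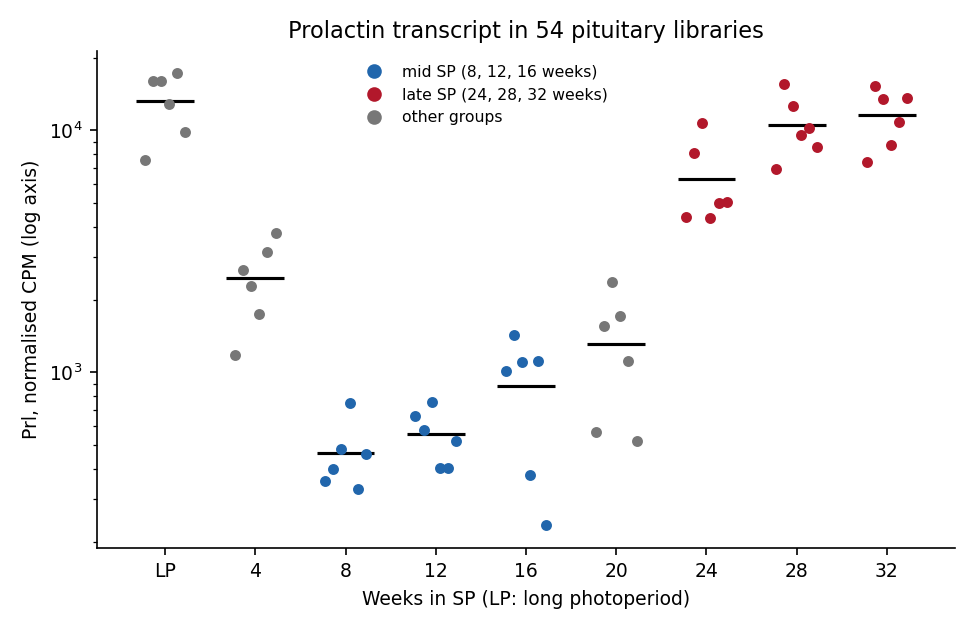
Prolactin transcript level (Prl, normalised CPM on a log axis) in each of the 54 pituitary libraries, by weeks in SP, with LP on the left. Points are libraries and bars are means of 6; every late library (red, 4366 to 15556 CPM) lies above every mid library (blue, 234 to 1425 CPM).

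Week by week the Prl level was low in all mid weeks and high in all late weeks. Its mean was 464 ± 152.2 CPM at 8 weeks, 554 ± 141.4 CPM at 12 weeks and 879 ± 468 CPM at 16 weeks (SD, n = 6 each). At 24 weeks the mean was 6286 ± 2594 CPM, at 28 weeks 10580 ± 3088 CPM and at 32 weeks 11544 ± 3074 CPM (SD, n = 6 each). The 16-week group was the most spread of the mid weeks, with 4 libraries between 1015 and 1425 CPM and the remaining ones at 376 and 234 CPM. Against the mean of the 3 mid weeks, Prl was higher by 3.30 (SE 0.24) on the log2 scale at 24 weeks, by 4.05 (SE 0.24) at 28 weeks and by 4.19 (SE 0.24) at 32 weeks in edgeR, so each late week passed on its own (FDR = 5.52e-12, 1.45e-14 and 5.57e-15). These are 9.88-fold, 16.6-fold and 18.2-fold higher levels. Of all tested genes, an unadjusted p below 0.05 was reached by 1.29% higher and 2.99% lower at 24 weeks, by 1.74% higher and 1.08% lower at 28 weeks and by 2.00% higher and 1.40% lower at 32 weeks. With Aak1 beside Prl, 2 genes were called higher at 24 and at 28 weeks (0.0431% each) and 1, Prl, at 32 weeks (0.0215%).

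Among the later weeks, the largest step between neighbouring groups was the rise from 20 to 24 weeks. At 20 weeks, a group outside the comparison, Prl stood at 1308 ± 715 CPM (SD, n = 6), with libraries from 520 to 2372 CPM that overlapped the upper mid libraries. From 20 to 24 weeks mean log2 CPM rose by 2.36 (exact permutation test over 924 splits, 2-sided, p = 0.00216, adjusted p = 0.00576 over 8 pairs of neighbouring groups). From 24 to 28 weeks it rose by a further 0.79 (exact p = 0.0216, adjusted p = 0.0432), and from 28 to 32 weeks the difference was 0.13 (exact p = 0.584, adjusted p = 0.584). The steps from 8 to 12, 12 to 16 and 16 to 20 weeks were 0.26, 0.44 and 0.60 and did not pass (exact permutation test, adjusted p = 0.391 for each).

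Prl at 28 and 32 weeks was not told apart from that of hamsters that had never left LP, while at 24 weeks it was lower. In LP the mean was 13265 ± 3878 CPM (SD, n = 6), with libraries from 7554 to 17218 CPM, and after 4 weeks of SP it was 2464 ± 940 CPM. Mid minus LP was -4.40 on the log2 scale (SE 0.26, edgeR FDR = 7.79e-19). Late minus LP was -0.53 (95% interval -1.08 to 0.01), which did not pass, so a late level between 0.473-fold and 1.01-fold of LP is within the interval. By week, the exact permutation test put the 24-week level 1.10 below LP on the log2 scale (p = 0.0108, adjusted p = 0.0151 over 7 weeks), while at 28 weeks the difference was -0.32 (exact p = 0.236, adjusted p = 0.275) and at 32 weeks -0.19 (exact p = 0.468, adjusted p = 0.468). In libraries outside the late and mid groups, LP exceeded the mean of 4 and 20 weeks by 2.87 (SE 0.29, edgeR FDR = 8.51e-10), and Prl was the 1 gene called there (0.0215% of those tested, with 3.96% at an unadjusted p below 0.05). Ordered by mean, the groups ran 8, 12, 16, 20, 4, 24, 28 and 32 weeks and LP. This order came from the same values, which fixed the pairs and their signs, so tests between its neighbours cannot decide it. Of the 8 pairs, the step from 4 to 24 weeks (1.35, exact permutation test, adjusted p = 0.0173) and that from 24 to 28 weeks (adjusted p = 0.0864) were below 0.1. The latter had the same exact p as above (0.0216), adjusted here over a different set of pairs. The remaining neighbours had adjusted p from 0.104 to 0.584.

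The difference was as large on a scale that does not use library totals. Set against Gh in the same library, Prl had 0.441 to 1.81 counts per 100 Gh counts in the mid libraries (median 0.860) and 4.85 to 34.2 in the late libraries (median 13.8), again without overlap. The mean log2 ratio was higher by 4.03 in late SP (permutation test, p = 1e-05, 18 against 18), a 16.3-fold difference. In LP the ratio ran from 14.6 to 52.5 (median 32.1) and at 32 weeks from 13.3 to 34.2 (median 19.3). The LP ratio stands over a lower Gh level, which averaged 44820 CPM in LP and 66178 CPM in late SP. Gh was above LP by 0.73 on the log2 scale at 16 weeks and by 0.74 at 28 weeks (exact permutation test, adjusted p = 0.0455 each over 7 weeks), and the other 5 weeks from 8 to 32 had adjusted p from 0.0605 to 0.381. Both listed Prl isoforms carried the same count in 28 of the 36 libraries. Whether a read was counted for both or split between them was not tested, so summed counts need not equal numbers of reads. With the more counted isoform alone the difference was 3.82 (edgeR FDR = 5.72e-42).

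The other call, Aak1, rested on many isoforms with a few counts each. Aak1 encodes a kinase of clathrin-coated vesicles, and 44 isoforms are listed for it. It was read in 7 of 18 mid and 14 of 18 late libraries, and the summed counts came to 45 in the mid and 740 in the late group. Of these, replicates 2 and 3 of each week, the deepest libraries, held 93.3% and 83.8%. A single isoform never exceeded 7 counts in a library: at 24 weeks, for example, replicate 5 had 33 summed counts made of 33 isoforms with 1 count each. The level was 20.2 ± 53 CPM in mid and 291 ± 354 CPM in late SP (SD, n = 18 each), and the groups overlapped. The fitted difference was 3.02 (SE 0.53, edgeR FDR = 0.00433), where DESeq2 gave 4.74. With the highest isoform in place of the sum (5.99 counts in all mid libraries and 26 in all late ones) it was 0.50 (FDR = 0.997), and without the libraries of replicate 3 the FDR was 0.173. The permutation test gave a difference of 2.08 in mean log2 CPM (p = 0.00146, FDR = 0.992 over all tested genes).

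**Figure D2:**
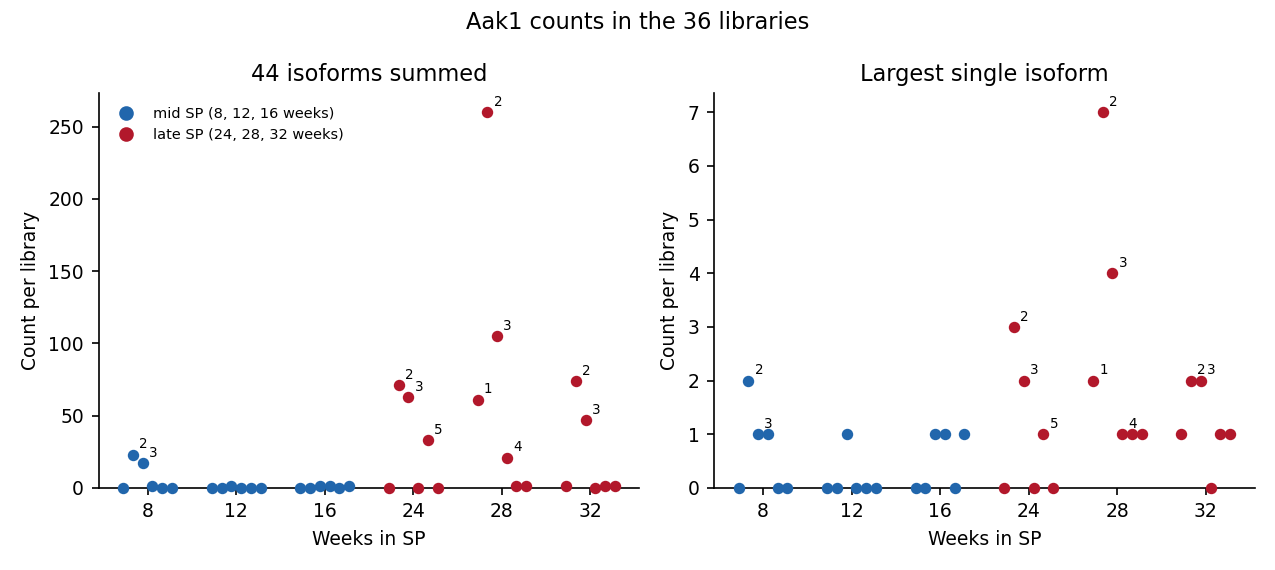
Aak1 counts per library by weeks in SP, for the sum of the 44 listed isoforms (left) and for the isoform with the largest count in that library (right); blue points are mid and red points late libraries, and numbers are replicate numbers of libraries with at least 10 summed counts. Summed counts reach 260 where the largest single isoform has 7.

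Across all tested genes moderate differences did not pass: Dlk1, at -0.47 (SE 0.13), had an edgeR FDR of 0.748. The median standard error of a gene's log2 difference was 0.24, and the median gene's 95% interval reached 0.48 to either side. The prior count of 2 in the fit makes both the difference and its standard error smaller for genes with few counts. For the 3763 genes under 100 CPM the median standard error of 0.23 is therefore no measure of what could be resolved. The 852 genes with a mean of 100 to 1000 CPM had a median interval of 0.54 to either side. The DESeq2 Wald test also called Prl and Aak1 and 0 lower genes, with 154 genes at an unadjusted p below 0.05. limma voom and the permutation test of every gene called Prl alone higher and 0 lower, with 227 genes and 3.90% of genes at an unadjusted p below 0.05.

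**Figure D3:**
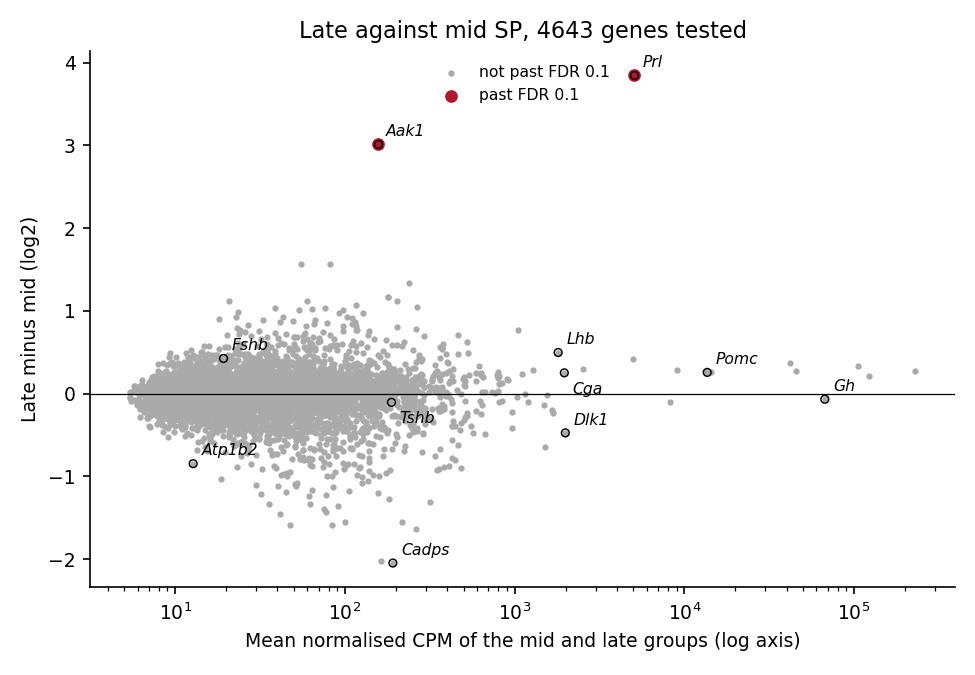
Late minus mid difference (log2) against mean level (CPM, log axis) for the 4643 genes tested; red points passed an FDR of 0.1 and named open circles did not. Prl (3.85) and Aak1 (3.02) stand apart from a cloud centred on -0.01.

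Among genes higher in late SP, the 8 with the next smallest p did not pass. Map3k3, a kinase of MAP kinase cascades, was read in 6 mid and 13 late libraries (7.09 and 29 CPM on average; difference 0.91, SE 0.23, edgeR FDR = 0.484). Tcf12, a basic helix-loop-helix factor, differed by 1.56 (SE 0.44, FDR = 0.748) and Ppp1r9a, an actin-binding protein, by 1.11 (SE 0.33, FDR = 0.748). Gm6855, a predicted gene, was read in 10 mid and 17 late libraries and differed by 0.57 (SE 0.17, FDR = 0.796). Lamp2, a lysosomal membrane protein, differed by 0.58 and the predicted genes Gm14234 and Gm14016 by 0.49 and 0.53. Lhb, the beta subunit of luteinizing hormone, completed the set. The 7 besides Lhb averaged under 100 CPM in both groups. Their libraries ranged from 0 counts to 86 for Tcf12, to 28 for Ppp1r9a and to 11 for Map3k3, and the remaining 4 had at most 10 counts in any library.

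Among genes lower in late SP, the 10 with the smallest p did not pass either. Atp1b2, a beta subunit of the sodium pump, came closest. It was read in 13 of 18 mid libraries and 5 of 18 late libraries (21.6 and 3.94 CPM on average; difference -0.85, SE 0.19, edgeR FDR = 0.169). Without edgeR's prior count, the DESeq2 Wald test put the difference of Atp1b2 at -2.23 (FDR = 0.217). Dlk1, a membrane protein related to Notch ligands that is made by endocrine cells of the gland, was the 1 well-read gene of the set. Its level had a lowest value of 1339, a median of 2313 and a highest value of 3218 CPM in mid SP, and of 1042, 1717 and 2387 CPM in late SP, so the groups overlapped. The difference of Dlk1 was -0.47 (SE 0.13, FDR = 0.748), with a 95% interval from 0.597-fold to 0.868-fold. The other 8 were Mkks, Rapgef2, Map4k4, Ypel5, Ssbp4, Lasp1, Gm35624 and Limch1, with differences from -1.59 (Limch1) to -0.69 (Lasp1) and FDR from 0.748 to 0.796. In single late weeks, Map4k4 at 32 weeks (0.82, SE 0.86) and Gm35624 at 28 weeks (0.06, SE 0.63) lay above mid SP. The remaining weekly differences of these 8 genes were negative. Map4k4 and Ssbp4 summed 51 and 26 listed isoforms, none with more than 3 counts in a library.

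Growth hormone, the most counted hormone transcript, overlapped between the groups. Gh had a lowest value of 43855, a median of 67672 and a highest value of 96606 CPM in the mid libraries and of 39802, 64846 and 103843 CPM in the late libraries. Neither group lay above the other. The difference was -0.07 (SE 0.13, edgeR FDR = 1), and its 95% interval ran from 0.792-fold to 1.15-fold, which leaves out a change as large as that of Prl.

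The gonadotropin subunits were higher on average in late SP without passing the test. Lhb had a lowest value of 769, a median of 1321 and a highest value of 2733 CPM in mid SP and of 969, 1937 and 3261 CPM in late SP. Its difference was 0.50 (SE 0.17, unadjusted p = 0.00545, edgeR FDR = 1), a 1.41-fold level with a 95% interval from 1.12-fold to 1.79-fold. The 8-week libraries were the lowest, at 1084 ± 186 CPM (SD, n = 6), and without week 8 the difference was 0.30. Fshb, the beta subunit of follicle-stimulating hormone, was read in 12 mid and 14 late libraries at 14.2 and 24.3 CPM on average (difference 0.43, SE 0.20, unadjusted p = 0.0402, FDR = 1). Cga, the alpha subunit shared with thyrotropin, averaged 1803 and 2120 CPM (difference 0.25, SE 0.16, FDR = 1). In the list of gonadotroph genes 5 of 11 were tested, 3 were higher and 2 lower, 0 passed, and the median difference was 0.25 beside -0.01 over all tested genes. Gnrhr, the receptor for gonadotropin-releasing hormone, was read in 10 of the 36 libraries and was not tested.

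Thyrotropin and the Pomc precursor overlapped between the groups. Tshb had a median of 192 CPM in mid SP and of 192 CPM in late SP, and was at 0 in 2 libraries of each group. Its difference was -0.11 with a 95% interval from 0.521-fold to 1.66-fold, the widest of the hormone genes. Its 7 listed isoforms had equal counts in 27 of the 32 libraries where it was read. Pomc had a lowest value of 3602, a median of 13746 and a highest value of 19227 CPM in mid SP and of 5885, 14909 and 27732 CPM in late SP. Its difference was 0.26 (SE 0.19, edgeR FDR = 1; 0.912-fold to 1.57-fold).

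**Figure D4:**
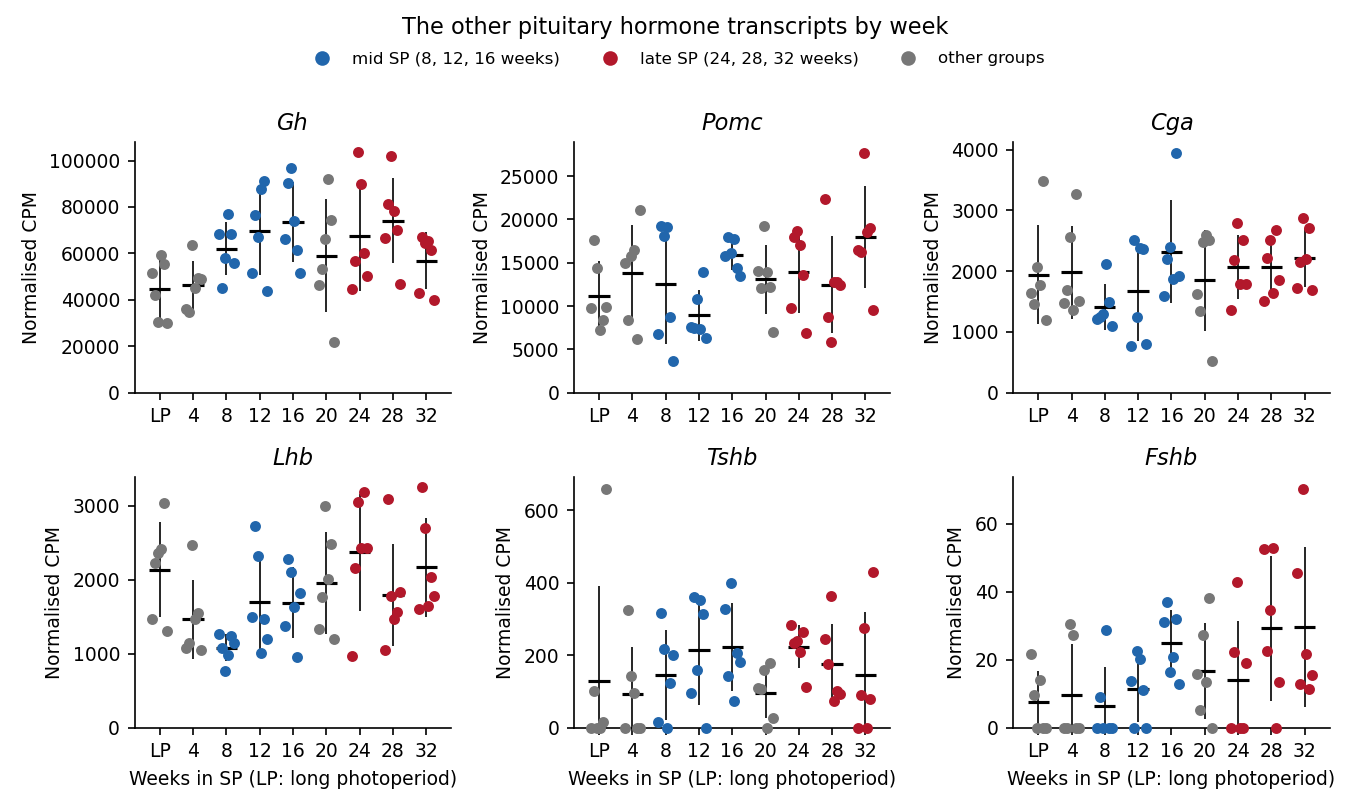
Levels of 6 other hormone transcripts (normalised CPM, linear axes from 0) in the 54 pituitary libraries by weeks in SP; points are libraries, bars are means of 6 and lines show 1 SD. Mid (blue) and late (red) libraries overlap in every panel.

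The regulators and receptors of the hormone cells did not pass. In the list of the Pou1f1 lineage (lactotrophs, somatotrophs and thyrotrophs) 8 of 13 genes were tested, Prl was the 1 that passed, and the median difference was -0.08. Pou1f1, the factor that drives Prl, Gh and Tshb, averaged 25 CPM in mid and 20 CPM in late SP (difference -0.09). Drd2, the receptor through which dopamine holds prolactin secretion down, averaged 6.92 and 12.8 CPM (difference 0.26). With 1 count worth 12.2 CPM in the median library, a change in Drd2 could not be resolved. Zbtb20, a factor of lactotroph development, averaged 1514 and 1584 CPM (-0.01). Ghrhr, the receptor for growth hormone releasing hormone, differed by -0.11. Of the list for Pomc cells, Pomc, Oacyl and Nr3c1 were tested and 0 passed (median 0.31), while Pcsk1, Pcsk2, Tbx19 and Pax7 were read in too few libraries.

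Of 9 genes listed for the pars tuberalis, the melatonin target tissue of the gland, 6 were tested and 0 passed (median -0.05). These were Tshb, Cga, Chga, Nampt, Tef and Sox4, several of which other pituitary cells also express. Mtnr1a, the melatonin receptor of the pars tuberalis, was read in 1 of the 36 libraries, Eya3, its long-day coactivator, in 9, and Timeless in 1. Of the thyroid hormone list Thra and Klf9 were tested, with differences of 0.20 and 0.19, and neither passed. The deiodinases Dio2 and Dio3 were read in 6 and 2 of the 36 libraries.

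The secretory pathway that carries hormones out of the cell held no gene that passed the test. Of 15 tested granins and processing enzymes, 0 passed (median -0.01): Chgb averaged 464 and 540 CPM, Scg2 484 and 483 CPM, and Resp18 1153 and 1163 CPM. Cadps, a protein of dense-core vesicle release, had the most negative difference of all tested genes (-2.05, SE 0.75, unadjusted p = 0.00982, edgeR FDR = 1) and was read in 10 mid and 9 late libraries. Of 22 tested genes of import into the endoplasmic reticulum 0 passed (median 0.01, range -0.39 to 0.48). Of 22 tested genes of folding 0 passed (median 0.08, range -0.21 to 0.48), with the chaperone Hspa5 at 295 CPM in mid and 292.3 CPM in late SP. Of 28 tested genes of Golgi and vesicle traffic 0 passed (median -0.02). At an unadjusted p below 0.05 these 4 lists held 1 higher gene, Txndc5, and 1 lower, Cadps, where 1.59% of all tested genes were higher and 1.92% lower.

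The largest lists, of housekeeping genes, held no called gene. Of 90 tested ribosomal protein genes 60 were higher and 30 lower in late SP, beside 2269 higher and 2374 lower of all tested genes, 0 passed, and the median difference was 0.06. This split turned with the scaling: by library totals 25 were higher and 65 lower (median -0.08), beside 1578 and 3065 of all tested genes. Of 76 tested genes of oxidative phosphorylation 38 were higher and 38 lower, 0 passed, and the median was 0.00. Their summed levels overlapped, at 11124 to 28314 CPM in mid and 15710 to 29270 CPM in late SP for the ribosomal proteins.

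**Figure D5:**
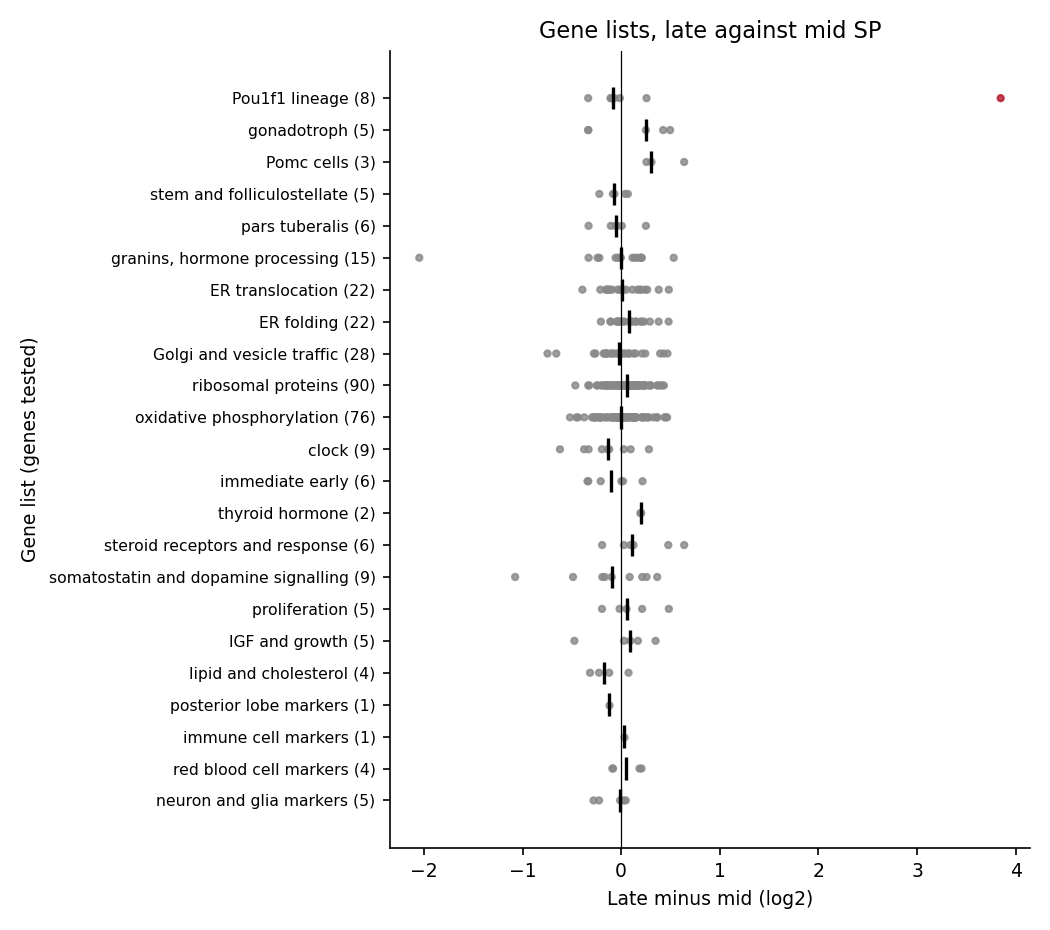
Late minus mid difference (log2) of every tested member of 23 gene lists; points are genes, black bars are list medians, and the number of tested genes stands behind each name. Prl (red) is the 1 member past an FDR of 0.1, and the list medians lie between -0.17 and 0.31.

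Signalling, clock and growth lists held no called gene. Of 9 tested genes of somatostatin and dopamine signalling 0 passed (median -0.10); Gnas, the stimulatory G protein subunit, averaged 8426 and 7983 CPM, and Creb1 had an unadjusted p of 0.0469 (difference -1.07). The somatostatin receptors Sstr2, Sstr3 and Sstr5 were read in 3, 4 and 6 of the 36 libraries. Of 9 tested clock genes 0 passed (median -0.14), with Per1 at 66 and 64 CPM and Tef at 133 and 99 CPM. Of 6 tested immediate early genes 0 passed (median -0.10), with a summed level of 41.4 to 1680 CPM in mid and 0 to 1116 CPM in late SP. Of 6 tested steroid receptor and response genes 0 passed (median 0.11), of 5 proliferation genes 0 (median 0.05), of 5 insulin-like growth factor and growth genes 0 (median 0.09) and of 4 lipid genes 0 (median -0.17). Mki67, a marker of dividing cells, was at 0 in all 36 libraries. Of 5 tested stem and folliculostellate genes 0 passed (median -0.07).

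The read markers of other cell types overlapped between the groups. Of 10 endothelial, 9 fibroblast and pericyte and 9 skeletal muscle markers in the table, 0 were read in enough libraries to be tested. Of the posterior lobe Vim was tested (difference -0.12), while Avp and Oxt, the hormones of its nerve endings, were read in 9 and 4 libraries. Cd74 was the 1 tested immune marker (0.03), and Ptprc, which marks leukocytes, was at 0 in all 36 libraries. The summed level of the 4 tested red blood cell genes ran from 166 to 988 CPM in mid and from 211 to 931 CPM in late SP, and that of the 5 tested neuron and glia genes from 94 to 808 CPM and from 56.9 to 805 CPM. The hormone genes Gh, Pomc and Prl were read in all 36 libraries. Lars2, the most counted gene, took 13.7% to 27% of the counts in mid and 8.05% to 27.7% in late SP. Whether the reads counted for Lars2 came from its own transcript was not tested.

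Within each phase few genes or none passed the test between weeks. Over 24, 28 and 32 weeks 0 genes passed an F-test (0.00%; 128, or 2.76%, had an unadjusted p below 0.05), and the smallest p belonged to Map4k4, Lcorl, Wdr33, Phf12 and Tnpo1 (edgeR FDR from 0.788 to 1). For Prl, 32 minus 24 weeks was 0.88 on the log2 scale (SE 0.33, unadjusted p = 0.0103, FDR = 0.999). The exact permutation test on Prl alone passed for the step from 24 to 28 weeks (adjusted p = 0.0432). Over 8, 12 and 16 weeks 2 genes passed (0.0431%), and 155 (3.34%) had an unadjusted p below 0.05. They were Stxbp5l (FDR = 0.0583), an inhibitor of vesicle fusion with 41 and 40 counts in replicates 3 and 5 of 8 weeks and at most 5 in any other mid library, and Zdhhc8 (FDR = 0.0599), a palmitoyltransferase with 12 counts in replicates 2 and 3 of 8 weeks and at most 3 in any other mid library. With the highest isoform of each gene in place of the sum neither passed. H2bc22, Phip and H2bc14 followed without passing. For Prl, 16 minus 8 weeks was 0.89 (SE 0.32, unadjusted p = 0.00888, FDR = 1).

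Against LP, late SP held 0 called genes (0.00%; 3.77% of genes had an unadjusted p below 0.05). Mid SP against LP held 1 called gene, Prl (0.0215%), which was lower, and 4.03% of genes had an unadjusted p below 0.05. Both contrasts and the late against mid contrast share libraries, so their values are not independent. In the same hamsters and with the same weeks and test, the mediobasal hypothalamus had 1 gene higher and 4 lower in late SP of 12117 tested, and the paraventricular and dorsomedial hypothalamus had 0 of 9782 and 0 of 7410. In the mediobasal hypothalamus Prl was read in 8 of 36 libraries and was not tested.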

How the data were processed

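Pituitary libraries of 36 hamsters (6 per week, 6 weeks of SP) were analysed, with LP, 4 and 20 weeks where named. According to the methods and labels, the authors trimmed and filtered nanopore reads, mapped them to mouse (GRCm39) by minimap2 and estimated isoforms with Salmon; the deposited values are expected counts, estimated per isoform and not normalized. The labels name a PCR cDNA kit and the methods a direct cDNA kit for this tissue. Estimated counts were summed per gene symbol and rounded. A read that fits several isoforms could be counted for each, and in 34.0% of gene and library pairs with several isoforms and at least 5 counts all isoforms were equal. Genes read in at least 18 of 36 libraries were fitted with edgeR 4.0.16 (R 4.3.3; TMM, 6 week means, legacy quasi-likelihood F-test, FDR below 0.1 by Benjamini-Hochberg). SE was derived from the fold change and F. CPM were TMM-scaled over all 54 pituitary libraries, and log2 CPM used a prior count of 2. The log2 differences of edgeR also used a prior count of 2. For genes with few counts they are therefore smaller than the ratio of the mean levels. The 9-group fit gave contrasts with LP. Fits were tested on simulated data. Permutation tests used NumPy 2.4.6. Alternatives were other scalings, filters, tools (DESeq2 1.42.0, limma 3.58.1), designs, isoform choices and left-out libraries; Prl per Gh, the permutation of every gene, isoform sums divided by isoform number and the highest isoform in single late weeks were chosen after seeing the data. Named genes were the 10 with the smallest p per direction, the hormones, 5 per test within a phase, and list members. Members and lists were chosen with earlier results of these data known. 0 columns were left unmapped. Intervals and depths cover counting and replicate error only. The hamsters of a week are separate animals, each with 1 library.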

Additional observations from a re-analysis of the deposited data

Results flagged for a closer look

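Weekly levels of 9 genes (Prl, Gh, Tshb, Cga, Lhb, Fshb, Pomc, Aak1 and Dlk1) were searched for single libraries far from the other 5 of their group, by the gap to the nearest library as a share of the group's range. Of 81 groups, 8 had such a library, beside a nominal chance rate of about 1 in 20 groups. That rate cannot be applied here. A group with counts in a single library is flagged whatever its level, as were the Aak1 groups named below. Whether the 8 exceed chance was therefore not decided.

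For Prl, replicate 4 at 8 weeks stood at 751 CPM, with the next library at 484 CPM, and it remained below every late library. For Cga, replicate 5 at 16 weeks stood at 3953 CPM, and for Fshb, replicate 4 at 8 weeks stood at 28.9 CPM, which was 2 counts. For Aak1, replicate 3 at 12 weeks stood at 7.56 CPM, which was 1 count. Outside the late and mid groups, Tshb was 657 CPM in replicate 6 of LP, Lhb was 2473 CPM in replicate 3 at 4 weeks, Aak1 was 155 CPM in replicate 4 of LP, and Dlk1 was 930 CPM in replicate 3 of LP.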

How the results depend on the processing

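Prl stayed higher in late SP and past the threshold under all 65 alternatives. In 42 of these a single library or replicate number was left out, with log2 differences from 3.78 to 3.98. With a whole week left out they ran from 3.67 (without week 32) to 4.11 (without week 16). Aak1 passed in 57 of 63 alternatives. It did not pass with the highest isoform (0.50), with 2 phases without week means (2.91), under limma voom (3.45), or without week 12 (2.67), week 16 (2.71) or replicate 3 (2.78). The cause was not tested.

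Of genes higher in late SP, 2 as reported, 8 were called with no filter, 3 with the isoform sum divided by isoform number, and 1 with a filter of 27 of 36 libraries, 2 phases without week means, week 12 or week 16 left out, limma voom or the permutation of every gene. Leaving out libraries gave 1 to 3. Of genes lower, 0 as reported, 16 were called with no filter and 1, Atp1b2, with library totals without TMM (-0.93), totals without Lars2, Prl and Gh (-0.91) or the highest isoform (-0.61). Leaving out libraries gave 0. Against mid SP, no filter gave 80 genes at 24 weeks, 116 at 28 weeks and 105 at 32 weeks, where 2, 2 and 1 were reported. The highest isoform gave 1 at 24 weeks and 4 at 28 weeks, and left-out replicates 1 to 2 at each. Between the late weeks, 0 as reported, no filter gave 7. Between the mid weeks, 2 as reported, no filter gave 15, the edgeR 4 form 1, an FDR below 0.05 gave 0, the highest isoform 0, and left-out replicates 0 to 1. Mid against LP gave 1 to 2 without single replicates. No named gene that passed, as reported or under an alternative, had the opposite sign in the other. Signs of results that passed in neither were not compared, and the split of the ribosomal protein genes turned with the scaling.

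With replicate number as a block, Prl (3.82) and Aak1 (2.77) were again called in late against mid SP, 2 genes between the late weeks and 1 between the mid weeks. Of 90 pairs of same-numbered libraries 49 had a correlation of deviations over 0.1 (median 0.11, against -0.02 for other numbers), which misses the criterion that every pair exceed 0.1, and the labels tie the numbers to no shared batch. That 27 of 36 libraries correlated best with their own number is a hint from the data, not the design, and depth also differed by number, highest in replicates 2 and 3. The ratio of LOC118567838 to Lars2 counts differed by number too. It ran from 0.761 to 0.923 in replicate 1, 0.329 to 0.473 in replicate 2 and 0.379 to 0.813 in replicate 3. In replicates 4, 5 and 6 it ran from 0.366 to 0.422, 0.313 to 0.357 and 0.414 to 0.506.

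Scaling by library totals moved the median over all genes from -0.01 to -0.09, with 36 genes higher and 186 lower at an unadjusted p below 0.05 against 74 and 89. With 1 count worth 12.2 CPM in the median library, genes at a few counts, among them receptors and clock genes, could not be resolved.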

Other observations

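Rn7s1 and Rn7s2, near-identical copies of the 7SL RNA of the signal recognition particle, carried the same counts and cannot be told apart. They averaged 103 CPM in mid and 256 CPM in late SP (difference 1.16, SE 0.47, unadjusted p = 0.0178, edgeR FDR = 1). Both passed the threshold with the highest isoform of each gene, and they are named after their values were seen.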
